A study of Mus musculus with 50 samples.

Results

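The metabotropic glutamate receptor genes Grm2, Grm3, Grm4, Grm5, Grm7 and Grm8 were followed across the nucleus accumbens (NAc) libraries of D1 and D2 medium spiny neurons (MSNs). They were chosen by gene symbol, with earlier results of these data known. All 6 were found among the 24552 genes listed in both count tables. Grm6, of the same family, is given only for context. All 6 passed the low-count filter of every comparison.

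Metabotropic glutamate receptors are G protein-coupled receptors that adjust the strength and excitability of synapses over longer times than the glutamate-gated channels. Group I receptors, to which Grm5 belongs, couple to Gq and are largely postsynaptic, where Homer and Shank proteins anchor them. Group II (Grm2, Grm3) and group III (Grm4, Grm6, Grm7, Grm8) receptors couple to Gi/o, and many of them sit on presynaptic terminals and reduce transmitter release. Grm3 is also made by astrocytes, and Grm5 in the striatum supports endocannabinoid-dependent synaptic depression.

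RiboTag (RT) mice carry an HA tag on the ribosomal protein Rpl22 that is switched on by Cre, so that an HA immunoprecipitation (IP) recovers ribosome-bound mRNA of the Cre-expressing cells. RT mice were crossed with the BAC transgenic D1-Cre line FK150 or D2-Cre line ER44, and male C57BL/6 mice aged 8 to 12 weeks went through chronic social defeat by CD1 aggressors for up to 10 days or were kept as undefeated controls (Con), after which a social interaction test divided the defeated mice into resilient (Res) and susceptible (Sus). Each library pooled NAc punches of 2 mice. The IPs numbered 4 Con, 4 Res and 5 Sus from RT; D1-Cre mice and 5, 5 and 5 from RT; D2-Cre mice, with 3 input libraries of total NAc RNA per line and stress group. A further 4 IPs, labelled Sirt1-KO, came from undefeated RT; D1-Cre mice with floxed Sirt1. The paper does not describe these 4 IPs, and no age is given for their mice. A difference of cohort or sequencing set between them and the D1 Con IPs cannot be told apart from their label. The transgenes mark every cell in the punch that drives the Cre, not MSNs alone.

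Gene-assigned counts ranged from 21591075 to 31009626 in the IPs, from 18384265 to 28179940 in the inputs and from 22174187 to 31785984 in the Sirt1-KO libraries. Between the lines, the cell labels held against their markers: all 6 D1-MSN markers tested were higher in D1 IPs and all 6 D2-MSN markers in D2 IPs. Markers of other cells were not absent. The summed level of the 7 cortical excitatory neuron markers (Slc17a7, Tbr1 and others) ranged from 409 to 1457 CPM (counts per 1e6 assigned counts, scaled by TMM) in D1 IPs, from 22.5 to 319.6 in D2 IPs and from 74.1 to 1107 in inputs. Astrocyte markers summed to 25.9 to 61.5 CPM in the IPs and to 399 to 517 in the inputs. D2-MSN markers summed to 2149 to 3599 CPM in D1 IPs, 801 to 1371 in inputs and 5898 to 8256 in D2 IPs. D1 IPs thus lay above the inputs in D2-MSN markers too. D1-MSN markers summed to 402 to 664 CPM in D2 IPs, 455 to 729 in inputs and 1151 to 1621 in D1 IPs. In such bulk samples, fewer cells of a type and less RNA per cell cannot be told apart.

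Grm2 and Grm8 were the members with more than a 1.5-fold difference between D1 and D2 IPs, and the start regions of both genes are printed here for orientation. Each sequence is the RefSeq promoter (GRCm38.p6) from 250 bases before to 50 bases after a gene start, read 5' to 3' on the gene's minus strand, with the GC box GGGCGG on either strand in capitals.
Grm2 (chr9:106656060-106656359): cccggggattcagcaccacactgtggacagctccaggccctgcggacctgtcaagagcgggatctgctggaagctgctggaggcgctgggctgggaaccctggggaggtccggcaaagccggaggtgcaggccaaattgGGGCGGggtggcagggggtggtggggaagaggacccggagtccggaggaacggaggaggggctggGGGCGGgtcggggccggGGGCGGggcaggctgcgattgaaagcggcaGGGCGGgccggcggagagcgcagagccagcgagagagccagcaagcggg
Grm8 (chr6:28135097-28135396): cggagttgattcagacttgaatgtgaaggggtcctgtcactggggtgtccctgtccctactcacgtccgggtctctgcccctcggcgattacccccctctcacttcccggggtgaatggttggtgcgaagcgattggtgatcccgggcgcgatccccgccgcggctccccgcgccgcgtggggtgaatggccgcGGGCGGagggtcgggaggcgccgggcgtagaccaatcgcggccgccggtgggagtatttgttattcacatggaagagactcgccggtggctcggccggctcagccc
The Grm2 window held 4 GC box matches and 22 CG dinucleotides in 72.0% G or C. The Grm8 window, the one of 3 listed for this gene that lies farthest upstream, held 1 match and 33 CG dinucleotides in 67.0% G or C. Over all 32851 promoters, 35.7% held a GC box match and the median held 7 CG dinucleotides. The core TGACG of the cyclic AMP response element, found in 20.8% of promoters, and the E box CACGTG, found in 7.15%, were searched on both strands and matched neither printed window. Another of the 3 Grm8 windows (chr6:28134372-28134671) held 1 TGACG match.

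All 6 members were present in D1 IPs, D2 IPs and inputs, at levels that differed widely between genes. Levels were compared between genes as CPM per kilobase of merged exons in GENCODE vM21 (GRCm38). The annotation behind the deposited counts may hold other lengths. Grm5 (chromosome 7, 87584168 to 88134907) was the highest in every IP, at 55.7 ± 3.93 CPM per kb in D1 IPs (SD, n = 13) and 59.3 ± 6.84 in D2 IPs (SD, n = 15). Grm3 (chromosome 5, 9485541 to 9725170) followed, at 24.0 ± 3.42 in D1 IPs and 29.7 ± 3.69 in D2 IPs. Grm4 (chromosome 17, 27422387 to 27521403) stood at 18.9 ± 1.08 and 23.0 ± 1.38, and Grm7 (chromosome 6, 110645581 to 111567230) at 16.4 ± 0.822 and 17.7 ± 0.844. Grm2 (chromosome 9, 106643095 to 106656082) and Grm8 (chromosome 6, 27275119 to 28135178) were lowest, at 2.84 ± 0.729 and 0.920 ± 0.122 in D1 IPs and at 1.47 ± 0.372 and 0.459 ± 0.111 in D2 IPs. This order of the 6 genes held in 13 of 13 D1 IPs and 15 of 15 D2 IPs.

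The inputs had another order at the top. Grm3 stood at 37.6 ± 1.83 CPM per kb and Grm5 at 35.6 ± 2.68 (SD, n = 18), and Grm3 was above Grm5 in 15 of 18 inputs. Grm7 and Grm4 lay close together there, at 11.8 ± 0.603 and 11.1 ± 0.947, with Grm4 above Grm7 in 6 of 18. Of the summed per-length level of the 6 genes, Grm5 made up 46.9% in D1 IPs, 45.0% in D2 IPs and 36.0% in inputs, while Grm3 made up 20.2%, 22.6% and 38.2%. Grm6 had 0 or 1 count in every library.

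**Figure D1:**
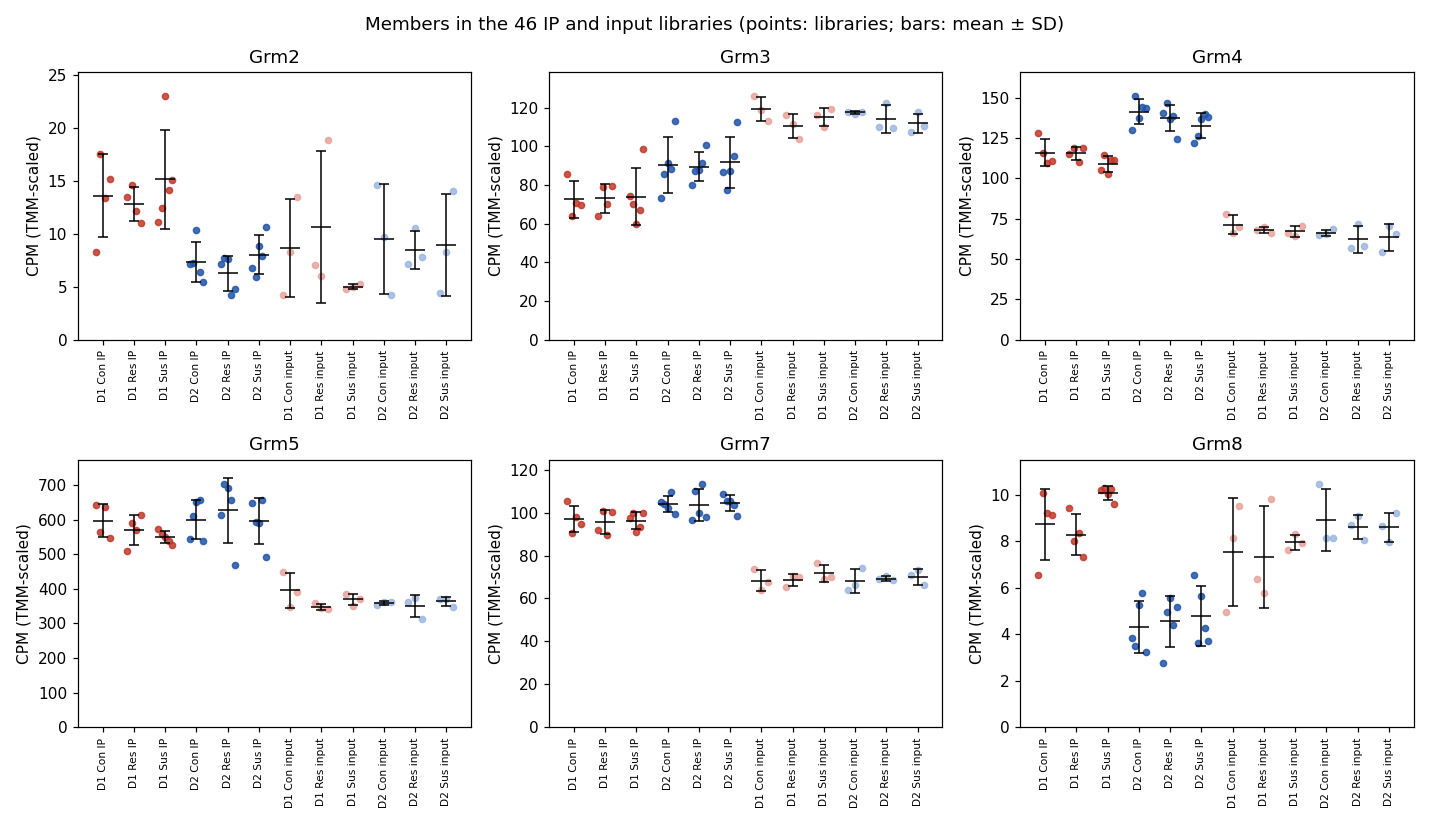
CPM of the 6 genes (vertical axes, scaled by TMM, each from 0) in 46 libraries by line, stress group and fraction; points are libraries and bars the mean ± SD. Grm2 and Grm8 sit higher in D1 IPs than in D2 IPs, Grm4 sits higher in D2 IPs, and Grm3 sits highest in the inputs.

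Between D1 and D2 IPs over the 3 stress groups, Grm2 and Grm8 were higher in D1 IPs, Grm3, Grm4 and Grm7 were slightly higher in D2 IPs, and Grm5 did not pass the test. At a fold over 1.5 and an adjusted p under 0.05, 2 of 6 members were called, against 7.66% of all genes tested. At an adjusted p under 0.05 and any fold the count was 5 of 6, against 40.8% of all genes. Because the members were chosen with earlier results of these data known, these shares are a description and not a test of the set. Wherever libraries of different groups are said not to overlap, the share of all genes so separated is not given.

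Grm2, a group II autoreceptor of glutamatergic terminals, was at 8.23, 17.5, 13.4 and 15.1 CPM in the D1 Con IPs and at 7.15, 7.24, 10.4, 6.39 and 5.43 in the D2 Con IPs. In Res the values were 13.4, 14.6, 12.1 and 10.99 in D1 IPs and 7.09, 7.71, 7.57, 4.18 and 4.74 in D2 IPs. In Sus they were 11.1, 12.4, 23.0, 14.1 and 15.04 in D1 IPs and 6.72, 5.94, 8.87, 7.90 and 10.6 in D2 IPs. The lines overlapped in Con, where the lowest D1 library lay below the highest D2 library, and did not overlap in Res or Sus. Over the stress groups the log2 fold change was 0.93 (SE 0.126), a 1.90-fold higher level in D1 IPs, with an adjusted p of 7.52e-07. Within Con it was 0.87 (SE 0.221, adjusted p = 0.00766), within Res 1.02 (SE 0.223, adjusted p = 0.00183) and within Sus 0.90 (SE 0.208, adjusted p = 0.00247). Without D1 Con replicate 2, the difference within Con was 0.73 and no longer passed (adjusted p = 0.0525).

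Grm8, a group III receptor found mainly at terminals, was at 6.53, 10.1, 9.22 and 9.11 CPM in the D1 Con IPs and at 3.83, 3.49, 5.25, 5.75 and 3.23 in the D2 Con IPs. In Res the values were 9.42, 8.02, 8.34 and 7.32 against 2.75, 4.95, 5.56, 4.39 and 5.17. In Sus they were 10.2, 10.3, 10.0, 10.3 and 9.59 against 6.55, 3.64, 5.66, 4.26 and 3.72. The lines did not overlap within any stress group, and 1 D2 Sus library reached the level of the lowest D1 Con library. The log2 fold change over the stress groups was 0.97 (SE 0.105), a 1.95-fold higher level in D1 IPs, with an adjusted p of 1.69e-08. By stress group it was 0.99 in Con (SE 0.185, adjusted p = 0.000415), 0.85 in Res (SE 0.185, adjusted p = 0.00175) and 1.06 in Sus (SE 0.174, adjusted p = 5.81e-05). The share of all genes called was 4.98% in Con, 5.52% in Res and 5.55% in Sus, and the members called were Grm2 and Grm8 in each.

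Markers of cortical excitatory neurons and of GABA interneurons also differed between the lines. The D1 and D2 IPs did not overlap in the summed level of the cortical list, and 6 of its 7 genes were called higher in D1 IPs, none of the 7 being absent from either line. By medians, Slc17a7 made up most of that sum. Its median was 624 CPM in D1 IPs, 156 in D2 IPs and 411 in inputs, against 763, 203 and 513 for the sum. Of 8 GABA interneuron markers, 5 were called higher in D1 IPs and 1 higher in D2 IPs. Across libraries of one class, the log2 level of Grm2 and of the marker sum had a Pearson r of 0.90 over 13 D1 IPs, 0.65 over 15 D2 IPs and 0.80 over 18 inputs. For Grm8 and the same sum, r was 0.67 over the D1 IPs, -0.41 over the D2 IPs and 0.48 over the inputs. With the summed GABA interneuron markers, r was 0.89, 0.70 and 0.94 for Grm2 and 0.68, 0.26 and 0.63 for Grm8, in the same order. Other lists gave other values. With the summed MSN markers, r was -0.80, 0.15 and -0.55 for Grm2 and -0.80, -0.37 and -0.70 for Grm8. For Grm8 and the cholinergic interneuron markers it was 0.09, 0.58 and -0.49. The points share a library's depth and scaling. The part of the cells behind these lists in the difference between lines was not tested.

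**Figure D2:**
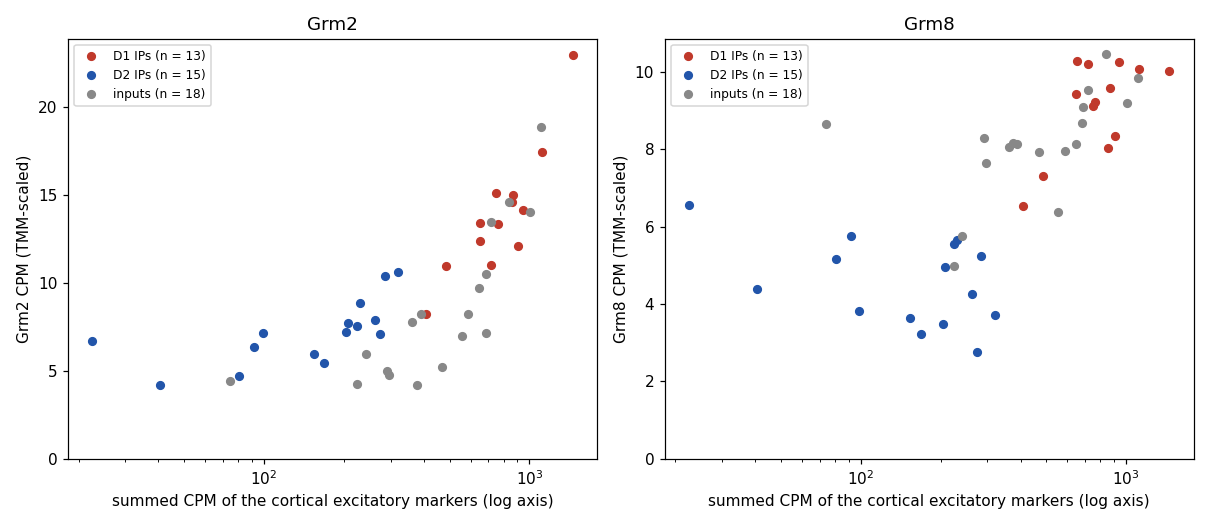
CPM of Grm2 and Grm8 (vertical axes, from 0) against the summed CPM of 7 cortical excitatory neuron markers (log axis), 1 point per library. Grm2 is highest, at 23.0 CPM, in the D1 IP with the highest marker sum (1457 CPM), and the D2 IPs lie at marker sums of 22.5 to 319.6.

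Grm4, a group III receptor with presynaptic roles in striatal circuits, was at 128, 116, 109.5 and 111 CPM in D1 Con IPs and at 130.2, 151, 138, 144 and 144 in D2 Con IPs. The lines did not overlap in Con, Res or Sus. The log2 fold change was -0.29 (SE 0.032), a 1.22-fold higher level in D2 IPs, with an adjusted p of 2.35e-08. By stress group it was -0.30 in Con (adjusted p = 0.00042), -0.26 in Res (adjusted p = 0.0014) and -0.30 in Sus (adjusted p = 0.000143). The summed MSN markers ranged from 4071 to 6213 CPM in D1 IPs and from 5659 to 7551 in D2 IPs. Of these 5 markers 1 was called, higher in D2 IPs, and their median log2 fold change was -0.377. With that sum, Grm4 had an r of 0.73 over D1 IPs, 0.78 over D2 IPs and 0.75 over inputs. The part of MSN content in the Grm4 difference between lines was not tested.

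Grm3, the group II receptor shared by neurons and astrocytes, ranged from 59.8 to 98.6 CPM in D1 IPs with a median of 70.3, and from 73.2 to 112.9 in D2 IPs with a median of 88.0. The lines overlapped in Con and Sus and not in Res. The log2 fold change was -0.32 (SE 0.071, adjusted p = 0.000573), a 1.25-fold higher level in D2 IPs, and within single stress groups the adjusted p was 0.0769 in Con, 0.0919 in Res and 0.0541 in Sus. The summed astrocyte markers ranged from 31.5 to 61.5 CPM in D1 IPs and from 25.9 to 40.6 in D2 IPs, and 1 of 6 was called, higher in D1 IPs. Their part in the Grm3 difference between lines was not tested.

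Grm7, a widely expressed group III receptor with low affinity for glutamate, ranged from 89.6 to 105.2 CPM in D1 IPs and from 96.7 to 113.3 in D2 IPs. Its log2 fold change was -0.12 (SE 0.031, adjusted p = 0.00171). With the summed MSN markers, Grm7 had an r of 0.70 over D1 IPs, -0.14 over D2 IPs and 0.44 over inputs, and their part was not tested. Grm5, the group I receptor, ranged from 509.7 to 643 CPM in D1 IPs and from 470.0 to 703 in D2 IPs. Its log2 fold change was -0.10 (SE 0.051, adjusted p = 0.121), with a 95% confidence interval from -0.20 to 0.00494.

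In the inputs of the 2 lines, which hold all cells of the punch, 0 of 6 members were called at the same threshold, against 0.0199% of all genes. The log2 fold change between D1 and D2 line inputs was -0.19 for Grm2 (95% confidence interval -0.81 to 0.43) and -0.19 for Grm8 (-0.43 to 0.0457). The other 4 members lay between 0.00316 and 0.10.

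The ratio of IP to input compares a transcript's scaled level in the IP with that in the whole tissue. As given above, D1 IPs lay above the inputs in D2-MSN markers too. A higher level in an IP thus does not by itself place a transcript in the tagged cells. In Con, Grm4 was higher and Grm3 lower in D1 IPs than in inputs, and Grm4 and Grm5 were higher and Grm8 lower in D2 IPs. These were 2 of 6 members in D1, against 41.4% of all genes, and 3 of 6 in D2, against 42.6%, so the shares were near those of all genes. At any fold the counts were 4 of 6 in D1 and 5 of 6 in D2, against 70.4% and 71.7% of all genes.

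Grm4 was 1.58-fold higher in the D1 IPs (log2 0.66, SE 0.070, adjusted p = 9.47e-08) and 2.09-fold higher in the D2 IPs (log2 1.06, SE 0.068, adjusted p = 1.11e-10) than in the inputs of the same line. Grm5 was 1.47-fold higher in D1 (adjusted p = 2.38e-05), under the fold threshold, and 1.64-fold higher in D2 (adjusted p = 6.95e-07). Grm7 was also higher in both lines, under the fold threshold, with log2 fold changes of 0.47 in D1 (adjusted p = 7.02e-06) and 0.58 in D2 (adjusted p = 2.82e-07). All IPs lay above all inputs for these 3 genes, with Grm5 at most 449 CPM in an input and at least 470.0 in an IP. The share of all genes with such a separation is not given here.

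Grm3 stood at 126, 119 and 113 CPM in D1 Con inputs and at 85.9, 64.0, 70.4 and 69.7 in D1 Con IPs, a log2 fold change of -0.76 (SE 0.108, adjusted p = 4.48e-06). In D2 Con it was -0.41 (SE 0.103, adjusted p = 0.00173). Astrocyte markers were likewise lower in the IPs, at medians of 38.4 CPM in D1 IPs, 30.5 in D2 IPs and 435 in inputs. Their part in the difference between IP and input was not tested.

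Grm8 stood at 10.5, 8.13 and 8.15 CPM in D2 Con inputs and at 3.23 to 5.75 in D2 Con IPs, without overlap. Its log2 fold change was -1.06 in D2 (SE 0.214, adjusted p = 0.000223) and 0.16 in D1 (SE 0.217, adjusted p = 0.512). The difference between the lines was itself 1.22 (SE 0.306, adjusted p = 0.0262), making Grm8 the only 1 of 6 members called for that contrast, against 3.4% of all genes. It lost the call without D1 Con IP replicate 2 (adjusted p = 0.0604), D1 Con IP replicate 3 (0.0519), D1 Con input replicate 1 (0.0759) or D2 Con input replicate 1 (0.0922). At any fold, Grm4 also differed between lines (log2 -0.40, SE 0.095, adjusted p = 0.0191), against 5.09% of all genes. In the same contrast, 4 of 7 cortical excitatory markers were called higher in D1, with a median of 2.29: they were lower in D2 IPs than in inputs in 7 of 7 cases (median -1.70), and their median was 0.70 in D1. Of 8 GABA interneuron markers, 7 were called lower in D2 IPs than in inputs and 4 in D1 IPs, and 2 were called higher and 1 lower for the difference between lines. The part of these cells in the Grm8 difference was not tested. For Grm2 the same contrast was 0.98 with a 95% confidence interval from -0.07 to 2.02 (adjusted p = 0.291). Inputs spread widely for Grm2, from 4.22 to 18.9 CPM.

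In the defeated groups, with Res and Sus pooled, the D1 calls were Grm2 (log2 0.90, SE 0.232, adjusted p = 0.000867), Grm3 (-0.64), Grm4 (0.71) and Grm5 (0.61), against 41.9% of all genes. The D2 calls were Grm4 (1.09), Grm5 (0.76) and Grm8 (-0.90, SE 0.127, adjusted p = 2.42e-07), against 42.3%. At any fold 5 of 6 members passed in D2, against 78.7% of all genes. Scaling by library size alone moved Grm4 in D1 (0.41 in Con, 0.53 in defeated mice), Grm5 in D1 defeated mice (0.44) and Grm5 in D2 Con (0.55) under the fold threshold, all still higher in IPs.

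**Figure D3:**
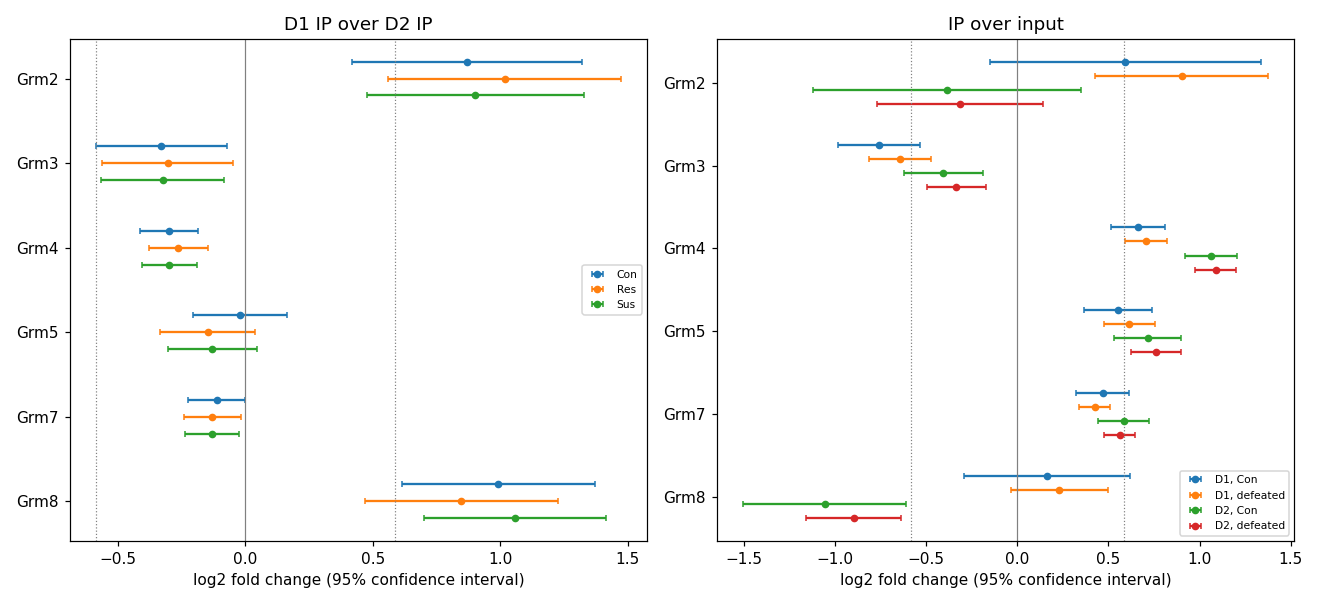
Log2 fold changes with 95% confidence intervals of the 6 genes for D1 over D2 IPs by stress group, and for IP over input by line in control and defeated mice; dotted lines mark a 1.5-fold change. The point estimates of Grm2 and Grm8 lie right of the upper dotted line in all 3 stress groups, and that of Grm8 lies on opposite sides of 0 for IP over input in D1 and D2.

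Social defeat was compared within each line, where the study applied an unadjusted p under 0.05. No member passed in any of the 6 comparisons of IPs, and the smallest p was 0.108 (Grm2 in D2 IPs, Sus against Res, log2 0.36, adjusted p = 1.00). The share of all genes passing was 5.34% for Sus against Con, 2.11% for Res against Con and 4.23% for Sus against Res in D1 IPs. In D2 IPs it was 3.68%, 3.02% and 1.66%. With the replicate number as a block, 690 genes passed for Res against Con in D2 IPs, against 430 without it, and still 0 of 6 members. For Sus against Con in D2 IPs, 716 genes passed with the block and 523 without it, again with 0 of 6 members. Without the block, the estimates bound the larger members closely. Over the 6 comparisons of IPs, the 95% confidence intervals on the log2 scale stayed between -0.20 and 0.12 for Grm4. Those for Grm7 stayed between -0.13 and 0.12. Those for Grm5 stayed between -0.30 and 0.24 and those for Grm3 between -0.25 and 0.29. They were wider for the low genes, from -0.67 to 0.80 for Grm2 and from -0.46 to 0.65 for Grm8.

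Grm8 in D1 IPs illustrates the spread. The 5 Sus libraries lay at 9.59 to 10.3 CPM, the 4 Con libraries at 6.53 to 10.1 and the 4 Res libraries at 7.32 to 9.42. Sus lay above Res without overlap, while the log2 fold change was 0.28 by edgeR, with an adjusted p of 0.999 and a 95% confidence interval from -0.0848 to 0.65. It passed the unadjusted threshold when only the groups compared were modelled.

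No member's response to stress differed between the lines: the smallest of 18 unadjusted p-values was 0.323, and the share of all genes passing was 1.82% for Sus against Con, 2.36% for Res against Con and 2.03% for Sus against Res. In the inputs, 0 of 6 members passed, against 4.51% for Sus against Con, 3.25% for Res against Con and 5.47% for Sus against Res. The smallest p there was 0.0515 for Grm5 in Res against Con (log2 -0.11, adjusted p = 1.00), and it crossed 0.05 under some alternatives, among them the removal of D1 Con input replicate 2, D2 Con input replicate 1, D2 Res input replicate 1 or D2 Res input replicate 2, and the replicate number as a block. Scaled by library size alone, Grm3 and Grm5 passed for Res against Con, with 771 of 15063 genes, and Grm3 and Grm4 for Sus against Con, with 1568 of 15063.

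**Figure D4:**
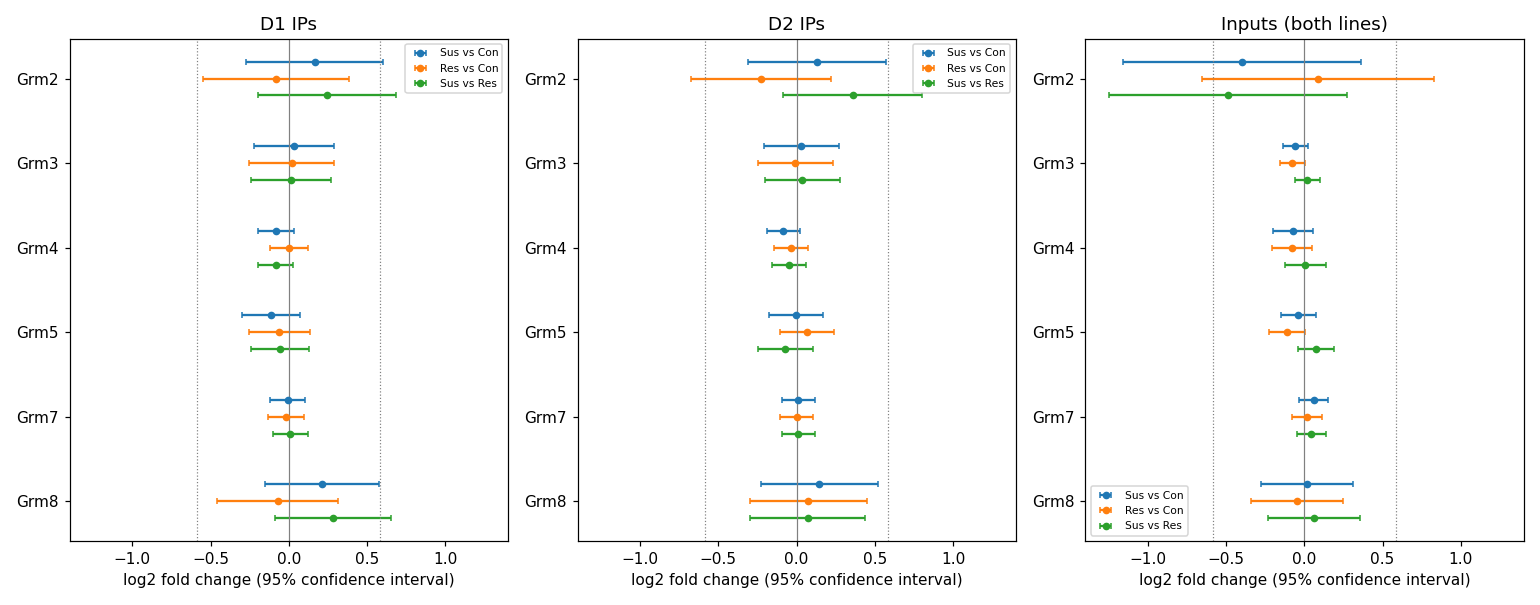
Log2 fold changes with 95% confidence intervals of the 6 genes for the stress comparisons in D1 IPs, D2 IPs and inputs; dotted lines mark a 1.5-fold change. Every interval includes 0, and those of Grm2 in the inputs are the widest, from -1.25 to 0.83 over the 3 comparisons.

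For the libraries labelled Sirt1-KO, the targeted gene came first. Sirt1, a NAD-dependent deacetylase, was at 13.1, 16.6, 14.8 and 14.3 CPM in D1 Con IPs and at 15.1, 16.2, 13.2 and 10.2 in the libraries labelled Sirt1-KO. The log2 fold change of -0.096 (SE 0.133, adjusted p = 0.768) did not separate the groups. Counts over the whole gene cannot show the loss of single exons, so they do not check the label.

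Against D1 Con, no member passed a fold over 1.5 with an adjusted p under 0.05 in the libraries labelled Sirt1-KO, where 0.749% of all genes did. Grm2 was at 16.7, 27.8, 29.5 and 13.9 CPM in them and at 7.70, 16.3, 12.6 and 14.1 in D1 Con, with overlap. Its log2 fold change was 0.80 (SE 0.258) with an edgeR adjusted p of 0.139. It passed when Sirt1-KO replicate 5 was left out, and with the replicate number as a block, where 593 genes were called against 102 without it. Grm8 was at 10.3, 10.9, 12.3 and 7.85 CPM against 6.11, 9.42, 8.66 and 8.50, with a log2 fold change of 0.35 (adjusted p = 0.285). Grm5 was at 506, 497, 501 and 467 CPM against 602, 527, 597 and 512, without overlap, and its log2 fold change was -0.18 (adjusted p = 0.163). The 95% confidence intervals for the other members were -0.41 to 0.16 for Grm3, -0.25 to 0.11 for Grm4 and -0.19 to 0.13 for Grm7.

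Cortical excitatory markers summed to 852 to 1618 CPM in the libraries labelled Sirt1-KO and to 382 to 1047 in D1 Con on the same scale. GABA interneuron markers summed to 309.7 to 393 against 225 to 310.2. Their part in the Grm2 and Grm8 values was not tested.

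**Figure D5:**
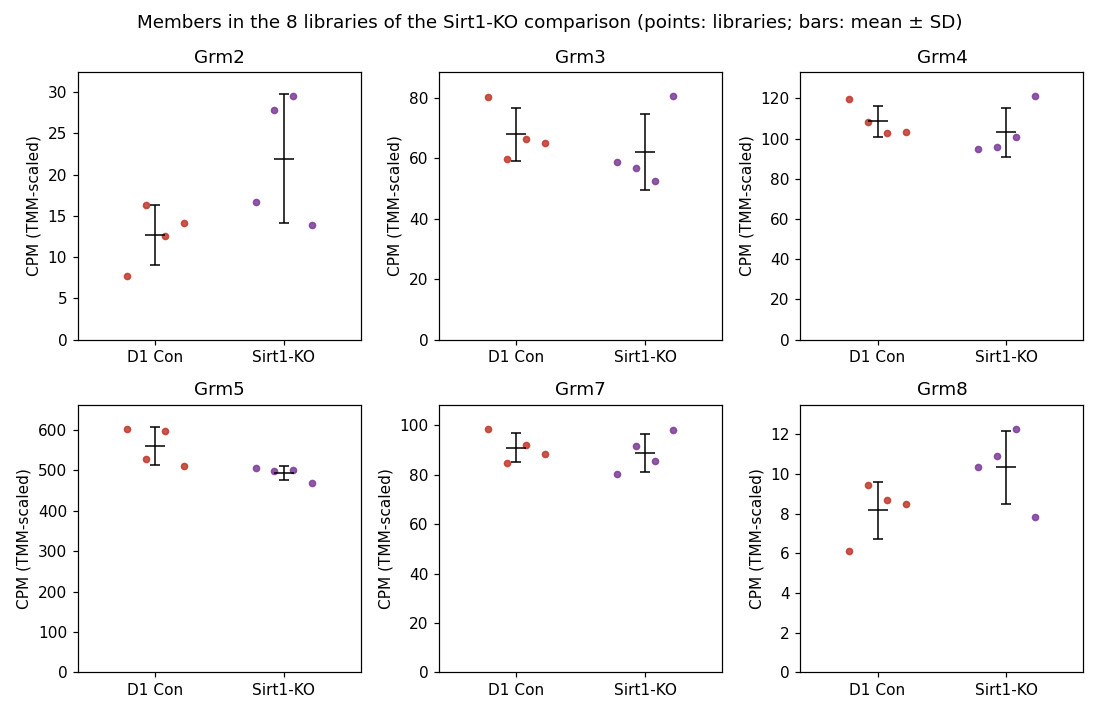
CPM of the 6 genes (vertical axes, scaled by TMM over these 8 libraries, each from 0) in D1 Con IPs and in IPs labelled Sirt1-KO; points are libraries and bars the mean ± SD, n = 4 each. The groups overlap for every gene except Grm5, whose 4 Sirt1-KO libraries (467 to 506 CPM) lie below the 4 D1 Con libraries (512 to 602). Grm5 was not called (edgeR adjusted p = 0.163), and the share of all genes without overlap is not given here.

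The genes that work with these receptors were counted by list between D1 and D2 IPs. Of the 12 tested genes for glutamate and NAAG supply and clearance, Slc17a7, the vesicular glutamate transporter of cortical terminals, was higher in D1 IPs (log2 2.23, SE 0.285, adjusted p = 2.97e-07). Slc17a7 is also among the cortical excitatory neuron markers above. Slc17a8, the transporter found in cholinergic interneurons, was higher in D2 IPs (log2 -1.09, SE 0.118, adjusted p = 1.62e-08). The cholinergic marker genes were also higher in D2 IPs in 4 of 6 cases. In the Gq cascade that acts below Grm5, the protein kinase C gene Prkca was higher in D1 IPs (log2 0.71, SE 0.057, adjusted p = 4.61e-11) and Prkcd in D2 IPs (-0.85, SE 0.223, adjusted p = 0.003). Of 9 Gi/o proteins, Gnb4 was higher in D1 IPs (0.92, SE 0.046, adjusted p = 1.96e-15). Of 13 scaffolds and partners, Homer2, which binds group I receptors, was higher in D1 IPs (0.62, SE 0.141, adjusted p = 0.000819), and of 10 desensitization genes none was called. The medians of these lists lay between -0.0147 and 0.125, against -0.0157 over all genes. In the Sirt1-KO comparison none of these lists held a called gene.

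The genes whose levels ran most like each member over the 46 IPs and inputs were sought among 13097 genes, as a description. They were Dlgap1, Ipcef1 and Ext1 for Grm2 (Pearson r 0.93, 0.93 and 0.92), Gprin3, Ankhd1 and Jmjd1c for Grm3 (0.95, 0.93 and 0.93), and Pde2a, Klf16 and Cpne5 for Grm4 (each 0.99). For Grm5 they were Alcam, Ano3 and Kcnd2 (0.99, 0.98 and 0.98), for Grm7 Epha4, Mkl1 and Elmod1 (0.98, 0.98 and 0.97), and for Grm8 Cadps, Adcy2 and Sstr1 (0.91, 0.90 and 0.89). These r pool IPs and inputs, whose levels differ. Within D1 IPs, D2 IPs and inputs taken singly, r was 0.94, 0.61 and 0.96 for Grm2 and Dlgap1, 0.76, 0.92 and 0.63 for Grm3 and Gprin3, and 0.73, 0.83 and 0.78 for Grm4 and Pde2a. It was 0.90, 0.93 and 0.88 for Grm5 and Alcam, 0.82, 0.35 and 0.59 for Grm7 and Epha4, and 0.70, 0.65 and 0.68 for Grm8 and Cadps. Among the members, Grm4, Grm5 and Grm7 had r from 0.94 to 0.96 with each other over all 46 libraries. Within the same classes r was 0.43, 0.34 and 0.53 for Grm4 and Grm5, 0.59, 0.0512 and 0.21 for Grm4 and Grm7, and 0.58, 0.57 and 0.44 for Grm5 and Grm7.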

How the data were processed

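RNA was measured by stranded, poly(A)-selected RNA-seq of HA immunoprecipitates and inputs. The authors trimmed reads with cutadapt, aligned them to mm10 with STAR and counted them per gene with HTSeq, per the labels and the study's methods, and the deposited tables hold raw counts per gene symbol. The strand setting of the counting is not given in the sources used here. Entries that name no gene (18.0 to 28.3% of counts in IPs, 35.9 to 40.0% in inputs) were left out of library sizes, as were 2 columns with no sample description and 5 repeated symbols. The D1 Con IPs hold identical counts in both tables.

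Counts were tested with edgeR 4.0.16 (TMM, filterByExpr with a minimum count of 10, quasi-likelihood F test, Benjamini-Hochberg adjustment over all genes) in R 4.3.3. Models held 28 IPs, 15 control IPs and inputs, 31 defeated IPs and inputs, 18 inputs with line as a term, or 8 Sirt1-KO and D1 Con IPs. Thresholds were a fold over 1.5 with an adjusted p under 0.05, or an unadjusted p under 0.05 for stress, as in the study. SE is the log2 fold change over the square root of F. CPM used TMM factors over 46 libraries, or 8 for Sirt1-KO, and the log2 CPM of likeness a prior count of 2. The procedure was also run on simulated counts with the same spread for every gene, which does not test it at the spread of these libraries. DESeq2 1.42.0 and the other alternatives are in the closing section.

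Named were the 6 members, Grm6, Sirt1, the 3 genes most like each member, and up to 3 called genes per pathway list. Some genes that this rule names are not reported here. Whether replicate numbers pair libraries was checked by the correlation of deviations from group means. Every same-numbered pair was over 0.1 in D2 IPs for Con with Res (0.20 to 0.48) and Con with Sus (0.15 to 0.62). This held in no other comparison as modelled, so by this check the numbers pair libraries in these 2 comparisons. Stress values are from the model without a replicate block unless the block is named. In the model of IPs, the block was a term per replicate number shared by both lines, not a pairing within D2 alone. Inputs and IPs of the same number were taken to come from the same homogenate, yet were tested as separate groups. That pairing entered only through the replicate block among the alternatives. The members and lists were chosen with earlier results of these data known. Each library is a pool of 2 mice, and p-values measure the spread between pools. Sequencing sets and defeat cohorts are not assigned to libraries in the sources used here and cannot be told apart from other spread. Gm28111 and Gm20387, antisense to Grm2 and Grm7 exons, and Mir592 within Grm8, overlap members. The first pair are not listed among the counted genes, and reads could be shared if strand was not used. Mir592 lies on the strand of Grm8, shares 96 exon bases with it and is listed among the counted genes. Reads over those bases could be affected whichever strand setting was used.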

Additional observations from a re-analysis of the deposited data

Results flagged for a closer look

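The ratio of IP to input for Grm8 in control mice differed between the lines. It was singled out because 2 lines showed different effects under the same contrast by a test of the difference itself: the log2 difference was 1.22 (SE 0.306, adjusted p = 0.0262 by edgeR). Grm8 was 2.08-fold lower in D2 IPs than in D2 inputs, and its D1 value was 1.12-fold with a 95% confidence interval from -0.29 to 0.62 on the log2 scale. Cortical excitatory markers had a median of 2.29 for the same difference, with 4 of 7 called, and of 8 GABA interneuron markers 2 were called higher and 1 lower. Their part was not tested. The call was lost in 4 of 15 fits that left out 1 library, with adjusted p-values from 0.00897 to 0.0922 over the 15. No library of the 42 sets of 4 or 5 values stood apart from its group by Dixon's test.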

How the results depend on the processing

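The members called between D1 and D2 IPs over the stress groups were Grm2 and Grm8 under RLE size factors, library size only, no low-count filter, DESeq2, the replicate block and each of 28 removals of a library, with log2 fold changes of 0.86 to 0.99 and 0.92 to 1.01. No called member reversed direction in any alternative. With library size only, which moved the median gene by -0.249 (D1) and -0.165 (D2) for IP over input in Con and by -0.171 and -0.13 in defeated mice, 1 member was called in D1 Con (Grm3; 5913 of 14922 genes) and 2 in D1 defeated (Grm2, Grm3; 6089 of 15239), and 2 passed in inputs for Sus against Con (Grm3, Grm4) and 2 for Res against Con (Grm3, Grm5). The share of IP-over-input calls higher in D1 Con was then 13.1%, against 34.6%, in D2 Con 20.5% against 34.5%, in D1 defeated 17.4% against 33.2%, in D2 defeated 20.5% against 31.4%, and for the difference between lines 47.4% against 67.5%. For stress it was 88.3% against 56.4% (D2 Sus against Con), 91.2% against 51.9% (D2 Res against Con), 17.6% against 38.2% and 17.9% against 50.7% (their differences between lines), and 6.31% against 59.4%, 8.82% against 45.9% and 26.4% against 55.1% (inputs Sus against Con, Res against Con and Sus against Res). At an adjusted p under 0.05 and any fold the counts were 5 (D1 against D2 IPs), 4 (D1 IP against input, Con), 5 (D2, Con), 2 (difference between lines) and 5 (D2, defeated). In inputs, Res against Con, 1 member (Grm5) passed with no low-count filter and 1 with DESeq2. In D1 IPs, Sus against Res, 1 (Grm8) passed with only the groups compared modelled.

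Leaving out 1 library gave 1 to 2 members for D1 against D2 IPs in Con, 0 to 1 for the difference between lines, 0 to 2 for inputs Res against Con, 0 to 1 for inputs Sus against Res, and 0 to 1 for Sirt1-KO against D1 Con. D2 IPs gave 0 to 1 for Sus against Con (Grm4, without D2 Con replicate 1), and 0 to 1 for Res against Con and for Sus against Res (Grm5, without D2 Res replicate 5). In inputs, Grm3 passed for Res against Con without D1 Con input replicate 3 or D2 Res input replicate 2, and Grm2 for Sus against Res without D2 Sus input replicate 3. The causes were not tested. Counts over all genes moved over 1.5 times with no low-count filter (D1 Res against Con 478 against 300 as reported, D2 Sus against Res 447 against 236, the 3 stress differences between lines 453, 520 and 513 against 259, 335 and 289, Sirt1-KO 170 against 102), with library size only (inputs Sus against Con 1568 against 679 and Res against Con 771 against 490, line inputs 5 against 3) and with DESeq2 (line inputs 9 against 3, Sirt1-KO 223 against 102).

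The replicate block moved 2 of 23 member counts past 1.5 times: 1 member passed in inputs Res against Con (Grm5) and 1 in Sirt1-KO against D1 Con (Grm2). Over all genes it gave 593 calls against 102 for Sirt1-KO, 690 against 430 for D2 Res against Con and 568 against 335 for its difference between lines. Deviations of same-numbered libraries correlated at -0.40 to 0.71 (IP with input), -0.30 to 0.62 (IPs across stress groups), -0.58 to 0.73 (inputs) and 0.0170 to 0.23 (Sirt1-KO with D1 Con). Besides D2 IPs Con with Res and Con with Sus, all were over 0.1 for D1 inputs across stress groups and D1 Sus IPs with inputs. As a hint, 10 of 10 libraries correlated best with their number in D2 Con with Res, 6 of 10 in D2 Con with Sus and 2 of 6 in Sirt1-KO with D1 Con. Of the members, Grm2 and Grm8 had the lowest counts (66 to 616 per IP). The part of depth in their spread was not tested.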
